A study of Mus musculus with 6 samples.

Results

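Fatty acid synthesis and lipid droplet genes were examined in splenic B cells as 10 genes chosen by their function, out of 19935 genes tested on the arrays. They comprised 4 genes of synthesis and desaturation (Acly, Acaca, Fasn and Scd2), 4 of glycerolipid synthesis and droplet formation (Agpat5, Dgat1, Fitm2 and Plin2) and 2 of lipid breakdown (Pnpla2 and Lipa). For each gene the brightest probe set that names it alone was taken. B cells of 3 CD37KO mice (Cd37-/-) were compared with those of 3 WT mice, with 1 Affymetrix mouse gene array per mouse. Mice of both genotypes were littermates on the C57BL/6J background, 3 months old according to the labels, although the methods give a somewhat older age. The gene is missing in all cells of a CD37KO mouse, so the comparison is not limited to effects inside the B cell. The cells were obtained by depleting CD43-positive splenocytes, and B220 staining served to assess purity. The comparison asked whether genes of lipid storage differ in primary B cells that lack CD37, a tetraspanin of the B-cell membrane.

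De novo synthesis starts from cytosolic citrate, which ATP-citrate lyase (Acly) cleaves to acetyl-CoA. Acetyl-CoA carboxylase 1 (Acaca) makes malonyl-CoA from it, and fatty acid synthase (Fasn) builds palmitate, which stearoyl-CoA desaturases such as Scd2 can turn into monounsaturated fatty acids after elongation or directly. Surplus fatty acids are esterified to triglycerides, packed in lipid droplets, and released again by cytosolic lipases or, in the lysosome, by acid lipase.

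The deposited values are log2 expression levels after RMA, a method that removes background, puts arrays on 1 scale and merges the probes of each probe set. Background was set at 5.77 on the log2 scale, where 95% of 1015 olfactory receptor genes, taken as silent here, were lower. All 10 genes were above it in all 6 arrays. Cd37 itself was at 8.16 ± 0.011 in CD37KO cells and 11.97 ± 0.13 in WT cells (SD, n = 3 each), so the arrays fit their labels. The Cd37 signal in CD37KO cells was still above background, and the reason was not tested. Mature B-cell genes were above background throughout, with 11 of 11 measured markers in all arrays and array means of 11.62 to 11.65 in CD37KO and 11.62 to 11.71 in WT cells. Of 13 neutrophil genes, 12 were higher in CD37KO cells at an unadjusted p under 0.05 from limma, beside 2.96% of all genes. The array means of the neutrophil genes were 6.49 to 7.84 in CD37KO and 5.94 to 6.19 in WT cells. Their part in the levels given here was not tested. Of 6 measured adipocyte genes, 5 (Adipoq, Lep, Plin1, Cidec and Retn) were below background in every array, and only Lipe, which other cells use too, was above it. In bulk RNA, fewer cells of a type and less RNA per cell cannot be told apart.

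After adjustment over all genes, none of the 10 passed the threshold of 0.05 in limma or in ordinary least squares, while 0.0552% of all genes passed it in limma. Before adjustment, limma gave a p under 0.05 to 1 gene that was higher in CD37KO cells (Agpat5) and to 1 that was lower (Fitm2). Over all genes, 2.96% were higher and 2.99% lower by that rule. For 2 of the 10 genes (Acaca and Agpat5) each CD37KO array exceeded each WT array, as did 4.33% of all genes. For 1 gene (Fitm2) each CD37KO array was below each WT array, as for 7.57% of all genes. The median log2 difference was 0.14 over the 10 genes, with 7 positive and 3 negative. Over all genes it was -0.019, with 8337 positive and 11598 negative. Over genes above background in 3 or more arrays it was 0.016.

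**Figure D1:**
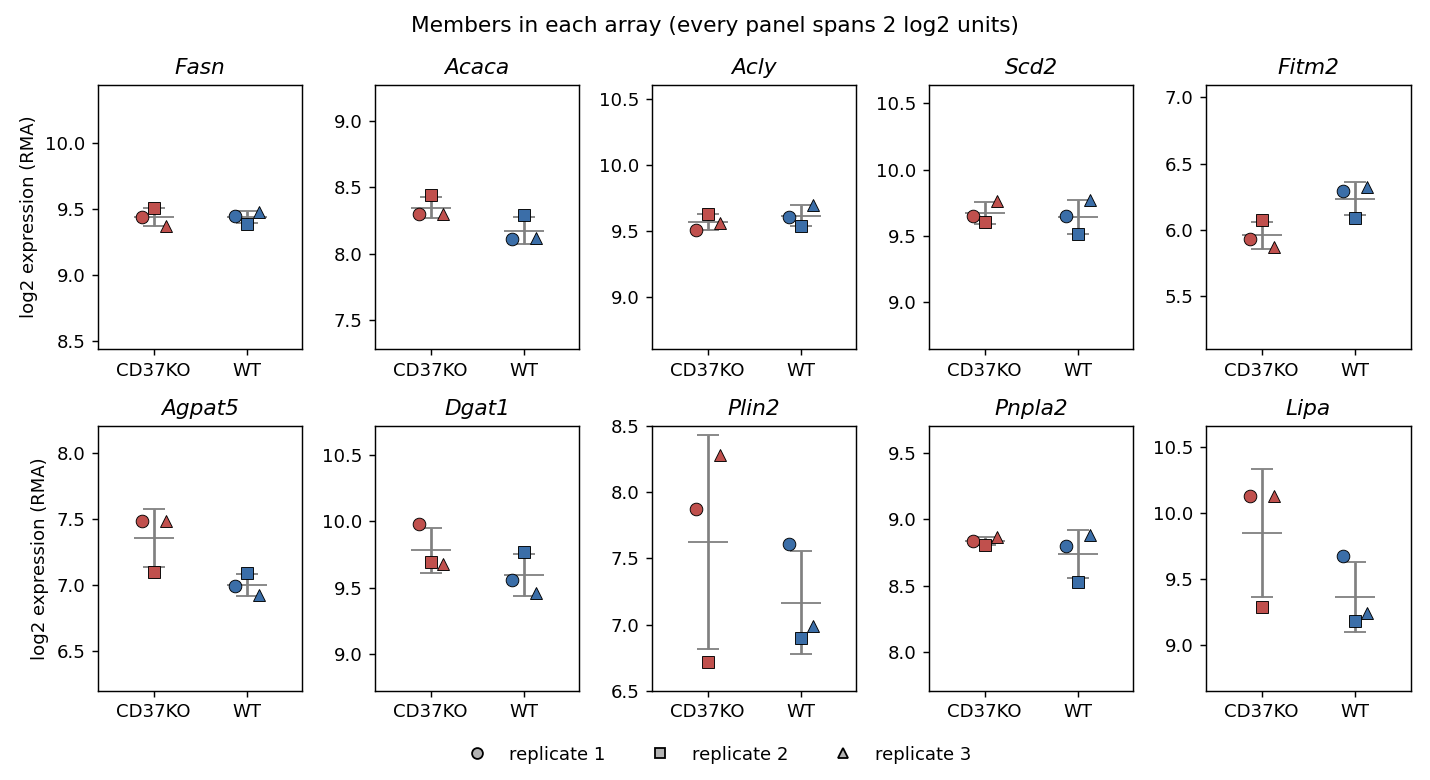
Log2 expression (RMA) of the 10 genes in the 3 CD37KO arrays (left) and the 3 WT arrays (right), with replicates 1, 2 and 3 as circle, square and triangle and the mean and SD in grey. Each panel spans the same number of log2 units, so the tight values of Fasn and Acly and the wide ones of Plin2 and Lipa can be compared.

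Levels of Fasn were nearly the same in both genotypes. Fasn (Entrez Gene 14104, chromosome 11) was at 9.44, 9.51 and 9.37 in CD37KO replicates 1 to 3 and at 9.45, 9.39 and 9.48 in WT replicates 1 to 3. The groups overlapped fully, with CD37KO replicates holding both the highest and the lowest value. Its log2 difference, CD37KO minus WT, was -0.0050 (standard error, SE, 0.065, limma adjusted p = 0.989), and the 95% interval of the CD37KO over WT ratio ran from 0.899 to 1.10. Differences in Fasn RNA beyond these bounds lay outside the interval, while smaller ones could not be resolved with 3 arrays per genotype.

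Acly (Entrez Gene 104112, chromosome 11), which supplies the acetyl-CoA, was equally steady. It was at 9.51, 9.63 and 9.56 in CD37KO cells and at 9.61, 9.54 and 9.70 in WT cells, and the groups overlapped. The log2 difference was -0.051 (SE 0.069, limma adjusted p = 0.886), with a ratio between 0.865 and 1.08. The desaturase gene Scd2 (Entrez Gene 20250, chromosome 19) was at 9.65, 9.60 and 9.76 in CD37KO cells and at 9.65, 9.51 and 9.77 in WT cells. WT replicates were at once the highest and the lowest for Scd2, and its log2 difference was 0.030 (SE 0.083, limma adjusted p = 0.948, ratio between 0.896 and 1.16).

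Acaca (Entrez Gene 107476, chromosome 11) was the synthesis gene with the largest difference. It was at 8.30, 8.44 and 8.30 in CD37KO cells and at 8.11, 8.29 and 8.12 in WT cells. The groups did not overlap, but the lowest CD37KO array lay only 0.0084 above the highest WT array, and within both genotypes replicate 2 was the highest. The log2 difference was 0.17 (SE 0.076, 95% interval -0.0030 to 0.34, limma adjusted p = 0.801). Acaca was the only one of the 10 genes with another probe set of its own, which was dimmer. That probe set was at 7.39, 7.65 and 7.47 in CD37KO cells and at 7.30, 7.43 and 7.23 in WT cells, a difference of 0.18 on the log2 scale with overlapping groups.

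Agpat5 had the smallest unadjusted p of the 10 genes. It encodes an acyltransferase that adds an acyl chain to lysophosphatidic acid, a step on the way to phospholipids and triglycerides (Entrez Gene 52123, chromosome 8). Agpat5 was at 7.48, 7.10 and 7.48 in CD37KO cells and at 6.99, 7.09 and 6.92 in WT cells. CD37KO replicates 1 and 3 were well above all WT arrays, whereas CD37KO replicate 2 lay only 0.0090 above the highest of them. The log2 difference was 0.35 (SE 0.11, limma unadjusted p = 0.0116 and adjusted p = 0.801), a ratio of 1.28 with a 95% interval of 1.07 to 1.52. It was 0.48 without CD37KO replicate 2 (limma adjusted p = 0.114), and 0.29 without CD37KO replicate 1 or without CD37KO replicate 3 (smallest adjusted p of the 10 genes 0.999 and 1.0). For this gene alone, the two-sided exact permutation p was 0.10, and no smaller one is possible with 3 arrays against 3.

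Fitm2 was the only one of the 10 genes whose CD37KO values all lay below its WT values. It encodes a membrane protein of the endoplasmic reticulum that helps droplets to form (Entrez Gene 228859, chromosome 2). Fitm2 was at 5.93, 6.07 and 5.87 in CD37KO cells and at 6.29, 6.09 and 6.32 in WT cells. Replicate 2 of each genotype came closest to the other group, and the gap between the groups was 0.016. The log2 difference was -0.28 (SE 0.086, limma unadjusted p = 0.0120 and adjusted p = 0.801), a ratio of 0.826 with a 95% interval of 0.721 to 0.947, and the exact permutation p was again 0.10. The signal was close to background. With a stricter line at 6.40, under which 99% of the olfactory receptor genes lay, Fitm2 was below background in all 6 arrays and the other 9 genes were above it.

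Dgat1 makes triglyceride from diacylglycerol (Entrez Gene 13350, chromosome 15). It was at 9.98, 9.69 and 9.68 in CD37KO cells and at 9.56, 9.77 and 9.46 in WT cells. WT replicate 2 exceeded 2 of the 3 CD37KO arrays, and CD37KO replicate 1 was the highest. The log2 difference of 0.19 (SE 0.11, limma adjusted p = 0.801) was 0.090 without CD37KO replicate 1 and 0.28 without WT replicate 2 (limma unadjusted p = 0.0317, adjusted p of 0.538 or more).

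**Figure D2:**
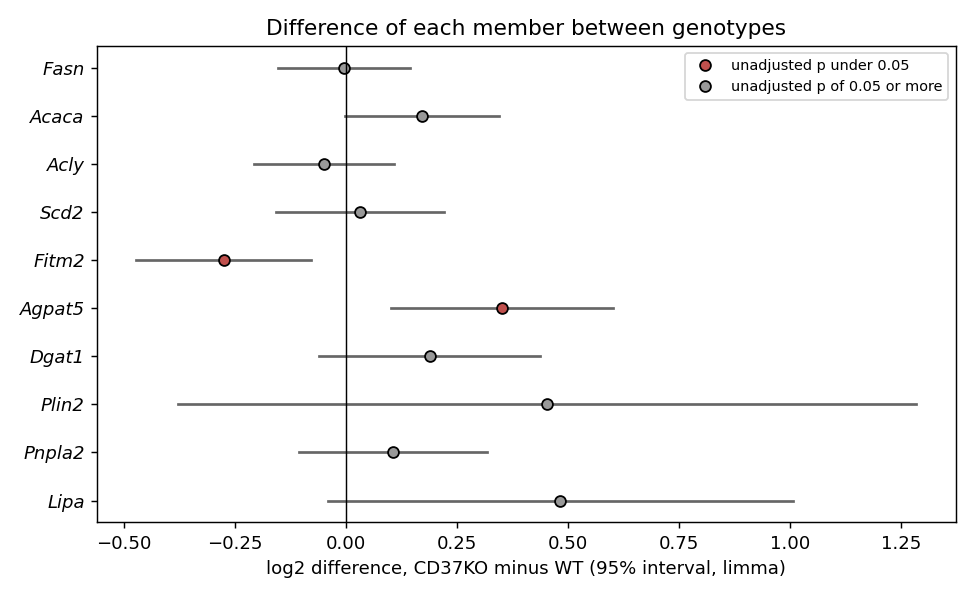
Difference between CD37KO and WT (3 arrays each, log2 scale) with its 95% interval from limma for each of the 10 genes. Red points had an unadjusted p under 0.05. The intervals of Fitm2 and Agpat5 leave out 0 on opposite sides, and those of Plin2 and Lipa are the widest.

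The droplet coat gene Plin2 and the lysosomal lipase gene Lipa varied most between mice among the 10 genes. Plin2 encodes perilipin 2, which coats droplets in most cell types (Entrez Gene 11520, chromosome 4). It was at 7.87, 6.72 and 8.28 in CD37KO cells and at 7.61, 6.90 and 6.99 in WT cells. CD37KO replicate 2 was the lowest of all arrays and CD37KO replicate 3 the highest, a span of 1.56 on the log2 scale. The spread of Plin2 within genotypes was larger than that of 99.7% of all genes tested. Its log2 difference of 0.45 (SE 0.36, limma adjusted p = 0.829) had a ratio interval of 0.769 to 2.44, so neither a small decrease nor a large increase in CD37KO cells lay outside it. It ranged from 0.12 without CD37KO replicate 3 to 0.90 without CD37KO replicate 2, where the adjusted p was 0.228.

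Lipa encodes lysosomal acid lipase, which frees fatty acids and cholesterol from lipids that reach the lysosome (Entrez Gene 16889, chromosome 19). It was at 10.13, 9.29 and 10.13 in CD37KO cells and at 9.67, 9.18 and 9.24 in WT cells. CD37KO replicates 1 and 3 were above all WT arrays, while CD37KO replicate 2 lay below WT replicate 1. The log2 difference was 0.48 (SE 0.23, 95% interval -0.041 to 1.01, limma adjusted p = 0.801), and the spread within genotypes exceeded that of 98.7% of all genes. Without CD37KO replicate 2 the difference was 0.76 (limma adjusted p = 0.161), and it was 0.34 without CD37KO replicate 1 or 3.

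Plin2 and Lipa had the same 3 highest arrays, CD37KO replicates 1 and 3 and WT replicate 1. None of the other 8 genes had these 3 on top. The share of all genes with these 3 on top was not computed. The mean of the macrophage and monocyte genes had the same 3 arrays on top as well. All 13 genes of that list (Csf1r, Adgre1 and C1qa among them) were above background in every array, and their array means were 9.99, 8.83 and 9.97 in CD37KO cells and 9.82, 9.05 and 9.16 in WT cells. Of these 13 genes, 1 was higher at an unadjusted p under 0.05 from limma and none lower, beside 2.96% and 2.99% of all genes. Macrophages carry both droplets and many lysosomes, and their part in the levels of Plin2 and Lipa was not tested.

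The promoters of these 2 genes are shown because the 2 genes shared their 3 highest arrays. Such sharing was not particular to them. Fasn and Acly also shared their 3 highest arrays, as did Scd2 and Pnpla2, and Acaca and Agpat5. Promoter sequences were found for 7 of the 10 genes and not for Scd2, Agpat5 and Dgat1. The 120 bases before the start site are given from RefSeq (GRCm38.p6), on the minus strand of chr4:86670060-86670179 for Plin2 and of chr19:34527475-34527594 for Lipa, with a CCAAT box in capitals.
Plin2: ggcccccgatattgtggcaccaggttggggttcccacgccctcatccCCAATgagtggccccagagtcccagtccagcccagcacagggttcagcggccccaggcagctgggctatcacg
Lipa: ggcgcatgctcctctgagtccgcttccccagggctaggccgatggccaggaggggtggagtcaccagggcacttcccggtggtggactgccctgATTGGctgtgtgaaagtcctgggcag
CCAAT was searched on both strands, and in Lipa it reads ATTGG on the strand shown. Both windows held 1 such match, as did 21.3% of 32851 promoter windows of this length in at least 1 copy. The GC box (GGGCGG, in 26.5% of windows) and the E-box (CACGTG, in 3.66%) were not in either window. CCAAT was not particular to these 2 genes. The window of Fasn held 3 matches, and those of Acaca, Acly, Fitm2 and Pnpla2 held 0. These matches describe the sequence only.

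**Figure D3:**
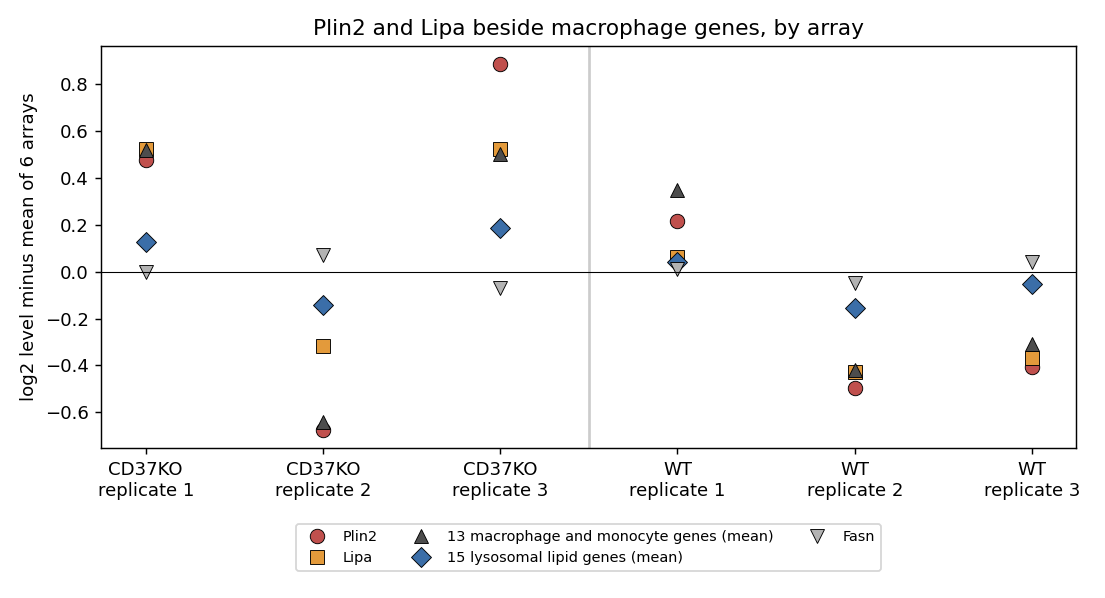
Log2 level of Plin2, Lipa and Fasn, and the mean of 13 macrophage and monocyte genes and of 15 lysosomal lipid genes, each minus its own mean over 6 arrays (y axis), for the 3 CD37KO arrays (left) and the 3 WT arrays (right). Plin2, Lipa and both lists were highest in CD37KO replicates 1 and 3 and in WT replicate 1, while Fasn stayed within 0.14 over all arrays.

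Pnpla2 encodes adipose triglyceride lipase, which starts the breakdown of droplet triglycerides in the cytosol (Entrez Gene 66853). It did not share the pattern of Lipa. Pnpla2 was at 8.84, 8.81 and 8.87 in CD37KO cells and at 8.80, 8.53 and 8.88 in WT cells. All arrays but WT replicate 2 were close to each other, and without that array the log2 difference of 0.11 (SE 0.092, limma adjusted p = 0.834) became 0.0028. Pnpla2 lies on chromosome 7 as Cd37 does, but separated by 1011 places when measured genes are ordered as in GRCm38.p6.

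By role, the 4 synthesis genes had a mean log2 difference of 0.036, the 4 droplet genes one of 0.18 and the 2 breakdown genes one of 0.29. For the synthesis genes, the mean deviation from each gene's own average was -0.013, 0.059 and 0.009 in CD37KO arrays and -0.031, -0.054 and 0.031 in WT arrays. For the droplet genes it was 0.225, -0.194 and 0.238 in CD37KO arrays and 0.024, -0.125 and -0.167 in WT arrays. Of the droplet genes, Fitm2 had a lower mean in CD37KO cells, and Agpat5, Dgat1 and Plin2 had a higher one. Plin2 had the largest log2 difference of these 4 genes (0.45). It also had the widest spread in CD37KO cells, with an SD of 0.808. The SD there was 0.218 for Agpat5, 0.169 for Dgat1 and 0.105 for Fitm2. For the breakdown genes the deviation was 0.284, -0.147 and 0.304 in CD37KO arrays and 0.038, -0.341 and -0.138 in WT arrays. The spread of the breakdown mean in CD37KO cells came mainly from Lipa (SD 0.485), whereas Pnpla2 had an SD of 0.030 there. For each of these roles the genotypes overlapped.

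The other genes of these pathways showed few differences. Of 109 genes listed by function, 102 were measured, and none passed after adjustment in limma or in ordinary least squares. Before adjustment, limma put 3 of them (2.94%) higher in CD37KO cells and none lower, beside 2.96% and 2.99% of all genes. Leaving out 1 array moved both counts. They were 16 and 4 without CD37KO replicate 2, where 6.48% of all genes were higher and 6.26% lower, and 0 and 0 without CD37KO replicate 3, where 1.52% were higher and 1.37% lower. In synthesis, elongation and desaturation 0 of 26 genes passed before adjustment in either direction, with a median log2 difference of 0.008. Scd1, the desaturase related to Scd2, was at 12.72, 12.65 and 12.65 in CD37KO cells and at 12.68, 12.75 and 12.73 in WT cells. The elongase gene Elovl5 had a log2 difference of 0.082 (SE 0.076) and Hacd2, a dehydratase of the elongation cycle, one of 0.14 (SE 0.14).

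Of the regulators of lipogenesis, 0 of 12 genes passed by the same rule, and the median was 0.008. Insig1, which retains the SREBP precursors in the endoplasmic reticulum, had a log2 difference of 0.009 (SE 0.088). Mbtps1, a protease that activates SREBPs, differed by -0.078 (SE 0.093), and Stk11, the kinase upstream of AMPK, by 0.006 (SE 0.074). In triglyceride synthesis 0 of 14 genes passed (median 0.024), with log2 differences of -0.047 for Agpat1, -0.017 for Agpat3 and 0.040 for Lpin2. Agpat1 and Agpat3 are acyltransferases of the same family as Agpat5, and Lpin2 is a phosphatidate phosphatase.

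Among 18 lipid droplet proteins 1 was higher, and the median was -0.011. This was Ldah, a droplet-associated hydrolase, at 7.76, 7.72 and 7.88 in CD37KO cells and 7.52, 7.54 and 7.65 in WT cells. The groups did not overlap, and the log2 difference was 0.21 (SE 0.071, limma unadjusted p = 0.0171 and adjusted p = 0.801). The unadjusted p of Ldah was 0.0669 without CD37KO replicate 3, 0.0667 without WT replicate 1 and 0.0597 after a second quantile normalization. Hsd17b11, Aup1 and Lpcat1, which also occur on droplets, differed by -0.039, 0.054 and 0.024 on the log2 scale. Of 17 lipolysis genes 1 was higher (median 0.006), the endothelial lipase gene Lipg, which was below background in every array. Ddhd1, a phospholipase, differed by 0.18 (SE 0.11), and the lysophospholipase genes Pnpla6 and Pnpla7 by -0.006 and 0.005.

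**Figure D4:**
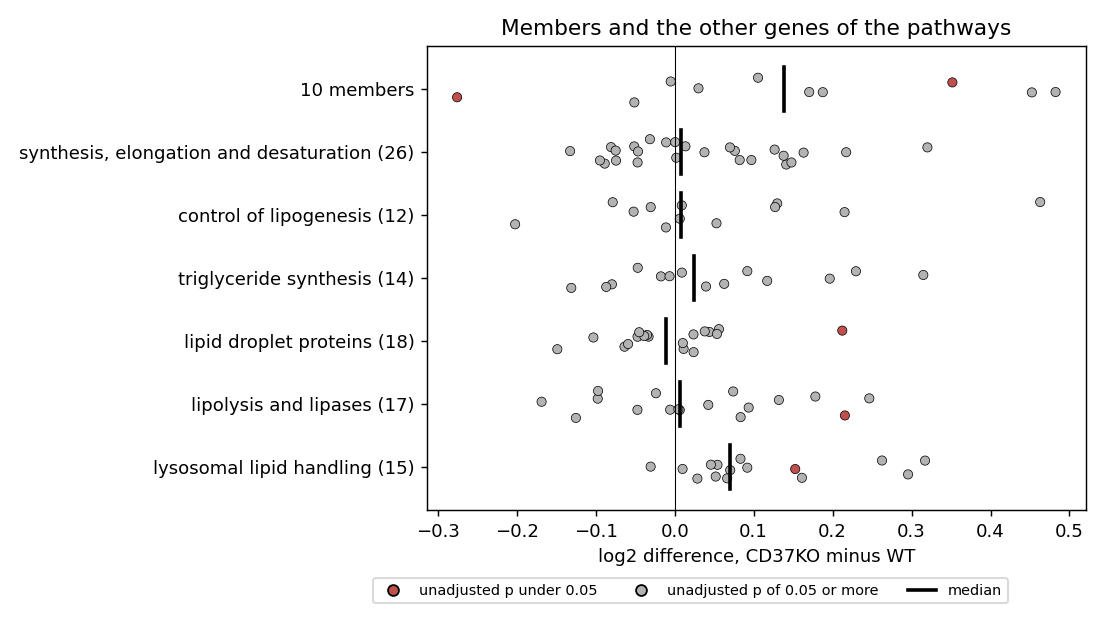
Difference on the log2 scale, CD37KO minus WT, for the 10 genes and for the measured genes of 6 function lists, with 1 point per gene, red where the unadjusted p was under 0.05, and the median as a black bar. The medians of the 6 lists lie between -0.011 and 0.070, and 3 list genes (Ldah, Lipg and Tfe3) are red.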

How the data were processed

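RNA of splenic B cells from 3 CD37KO and 3 WT mice had been hybridized to Affymetrix mouse gene arrays. Values were deposited on the log2 scale, with 1 value per probe set and array. RMA and the build mm8 are named in the submitters' processing notes, with no software named in the sources used here. RMA compresses differences of dim probe sets. Of 35361 probe sets, 21780 named 1 gene and were used, and symbols were updated through Entrez IDs to GRCm38.p6. The brightest probe set per gene was kept (19935 genes) with no filter on dim genes. CD37KO was compared with WT with the moderated test of limma (version 3.58.1, R 4.3.3, two-sided, functions lmFit and eBayes). P-values were adjusted by Benjamini-Hochberg across the 19935 genes. The fit was tried on simulated arrays with independent noise in each gene, so variation shared between genes was not covered. The number of arrays limits the precision. Alternatives were another normalization, centring, probe set rule, filter, variance model, array weights, a replicate block and leaving out each array. Named were the 10 genes, the 3 brightest of each function list, list genes above background at an unadjusted p under 0.05, and Cd37. Lipg was added after its value was seen. For 9 lists of cell type markers, counts, array means and the brightest gene were taken. The genes and lists were chosen with earlier results of these data known. Same-numbered arrays were not treated as pairs in the main fit, and the labels do not say whether they were handled together. Their deviations correlated at 0.238, 0.00678 and -0.139 over genes. Those of CD37KO and WT arrays with different numbers correlated at -0.367 to 0.312. These few values cannot decide whether the arrays were paired. The labels call the replicates biological.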

Additional observations from a re-analysis of the deposited data

How the results depend on the processing

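In 14 alternatives, ordinary least squares included, no adjusted p of the 10 genes was under 0.05, and the smallest was 0.114. Fitm2 stayed lower at an unadjusted p under 0.05 in all 14 and Agpat5 higher in 13, the exception being ordinary least squares (unadjusted p = 0.0603), which called 0 genes higher. The number of higher genes was 3 with array weights (Acaca, Agpat5 and Dgat1), 3 with the replicate block (Acaca, Agpat5 and Lipa), and 1 to 3 when 1 array was left out. It was 3 without CD37KO replicate 2 (Agpat5, Plin2 and Lipa) or WT replicate 2 (Acaca, Agpat5 and Dgat1), and 2 without WT replicate 1 (Agpat5 and Lipa). The share of all genes that were higher moved too. It was 7.23% with array weights, 3.22% with the replicate block and 6.48% without CD37KO replicate 2. Without WT replicate 2 it was 3.71% and without WT replicate 1 it was 2.23%, beside 2.96% with the main fit. The cause of these changes was not tested. Of 140 single differences, 5 changed sign. The Fasn difference was 0.00151 with array median centring and -0.0401 to 0.0304 over the fits that each left out 1 array. That of Scd2 was -0.0359 to 0.0929 over those fits. Of the 102 list genes, 2 were higher and 1 lower before adjustment by ordinary least squares, 10 and 7 with array weights, and 1 and 2 after a second quantile normalization. Over all genes, 2.12% were higher and 3.71% lower by ordinary least squares, and 7.23% and 10.2% with array weights. After a second quantile normalization, 2.62% of all genes were higher and 2.78% lower. The unadjusted p of Tfe3 was 0.0119 to 0.114 over the 14 alternatives, and that of Lipg 0.00478 to 0.0979 over those that tested it. The number of genes at an unadjusted p under 0.05, taken per list and direction, changed in 46 of 168 values. A change was a move from or to 0, or one of more than 1.5 times. With 3 arrays per genotype, the differences of Plin2 and Lipa were the least precise of the 10, and the signal of Fitm2 lay close to background.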

Other observations

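Of 15 measured genes that handle lipids in the lysosome, 14 were above background in all arrays. None passed after adjustment in limma or in ordinary least squares. Before adjustment, limma put 1 of them higher in CD37KO cells and 0 lower. The number higher was 6 without CD37KO replicate 2, where 6.48% of all genes were higher, and 0 without CD37KO replicate 1, CD37KO replicate 3 or WT replicate 2, after a second quantile normalization, with the filter on genes above background, and with trend and robust eBayes. The median log2 difference was 0.070, against -0.019 over all genes and 0.016 over genes above background in 3 or more arrays. For the list it was 0.024 without CD37KO replicate 3 and 0.16 without CD37KO replicate 2. The 1 gene past the unadjusted threshold with all arrays was Tfe3, a transcription factor of lysosomal genes. It was at 9.07, 9.07 and 9.08 in CD37KO cells and at 8.90, 8.86 and 9.0 in WT cells, and limma put the difference at 0.15 (SE 0.063, adjusted p = 0.801). Psap, the precursor of the saposins, differed by 0.092, the GM2 activator gene Gm2a by 0.052 and the lysosomal membrane gene Lamp2 by 0.070 on the log2 scale. The array means of the list were 9.49, 9.22 and 9.55 in CD37KO cells and 9.41, 9.21 and 9.31 in WT cells, so the 3 highest arrays were again those of the macrophage genes, whose part was not tested.

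The array means of 6 erythroid genes, of which 4 were below background in every array, were 5.76, 5.57 and 5.80 in CD37KO cells and 5.73, 5.51 and 5.61 in WT cells, with the same 3 arrays on top as for Plin2 and Lipa. Their part in the levels of Plin2 and Lipa was not tested. Median log2 differences were -0.05 for 7 T cell genes, 0.07 for 6 erythroid genes, 0.02 for 6 plasma cell genes, -0.01 for 7 dendritic cell genes, -0.13 for 7 endothelial and stromal genes and -0.03 for 6 adipocyte genes. They were 0.86 for 13 neutrophil genes, 0.19 for 13 macrophage genes and -0.04 for 11 B-cell genes. Of the 7 endothelial and stromal genes, 3 were lower in CD37KO cells at an unadjusted p under 0.05 from limma and 0 higher. Their array means were 6.37 to 6.46 in CD37KO and 6.56 to 6.72 in WT cells, and 3 of the 7 were below background in every array. Of the 7 dendritic cell genes, 1 was lower and 0 higher, beside 2.99% of all genes lower. The part of these cells in the levels given here was not tested. The brightest neutrophil gene, Ngp, was at 9.48 to 11.09 in CD37KO cells and at 8.13 to 8.46 in WT cells. The brightest macrophage gene, Ctss, which B cells use too, was at 10.42 to 10.47 in CD37KO cells and at 10.30 to 10.53 in WT cells.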
